A study of Mus musculus with 15 samples.

Results

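The 10 genes of the heat shock and endoplasmic reticulum (ER) stress responses followed here in mouse oocytes were Hspa1a, Hspa1b, Hspa8, Hsph1, Dnajb1, Hspa5, Hsp90b1, Atf4, Ddit3 and Xbp1. They were chosen by symbol and found as 11 of the 55401 Ensembl gene identifiers in the count tables, because Ddit3 carries 2 identifiers. The question behind the study was whether neurotrophin-4 (NT-4), a ligand of the TRKB receptor, changes oocytes while preantral follicles grow in culture. Each library was made from 6 germinal vesicle oocytes of Kunming mice, amplified together with SMART-Seq2, and the series gives the mice as 12 to 14 days old without a separate age for the in vivo group. There were 5 groups of 3 libraries, without any genetic change: oocytes grown in vivo and taken by puncture of antral follicles (IVV), and oocytes of follicles grown in vitro for 6 or 10 days either without NT-4 (IVG) or with it (IVG-NT). By the study's methods the 3 libraries of a group came from separate experiments, and the IVV libraries are numbered 2, 3 and 4 in their titles. A library of pooled oocytes cannot tell less RNA per cell from fewer cells holding it.

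Cells answer heat and other protein damage through heat shock factors, which bind heat shock elements and switch on chaperones of the HSP70, HSP110 and HSP40 families. Unfolded protein inside the ER is sensed by PERK, IRE1 and ATF6, which raise ER chaperones such as BiP and GRP94 and the transcription factors ATF4, CHOP and XBP1. A growing oocyte makes and secretes its zona pellucida through the ER, and it stores transcripts and proteins for the embryo.

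The promoters of 4 of the chaperone genes are shown because they hold motif matches of the 2 responses. These are a short, 2-unit heat shock element in the inducible HSP70 genes and the ER stress element in the 2 ER chaperone genes. Each line is the 250 bases before the transcription start in RefSeq (GRCm38.p6), written 5′ to 3′ on the gene's strand, with motif matches in capitals. The windows are chr17:34972157-34972406 for Hspa1a, chr17:34959239-34959488 for Hspa1b, chr2:34771840-34772089 for Hspa5 and chr10:86705445-86705694 for Hsp90b1, with Hspa5 on the plus strand and the other 3 on the minus strand.
Hspa1a: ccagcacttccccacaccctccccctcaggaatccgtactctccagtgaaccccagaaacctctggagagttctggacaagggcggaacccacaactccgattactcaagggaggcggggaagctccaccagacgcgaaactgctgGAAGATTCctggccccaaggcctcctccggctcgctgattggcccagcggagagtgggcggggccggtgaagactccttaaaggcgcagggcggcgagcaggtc
Hspa1b: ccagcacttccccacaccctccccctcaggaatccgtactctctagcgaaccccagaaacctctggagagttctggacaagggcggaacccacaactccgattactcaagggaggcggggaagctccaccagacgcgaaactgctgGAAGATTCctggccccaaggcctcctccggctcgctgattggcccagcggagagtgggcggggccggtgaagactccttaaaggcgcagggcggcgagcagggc
Hspa5: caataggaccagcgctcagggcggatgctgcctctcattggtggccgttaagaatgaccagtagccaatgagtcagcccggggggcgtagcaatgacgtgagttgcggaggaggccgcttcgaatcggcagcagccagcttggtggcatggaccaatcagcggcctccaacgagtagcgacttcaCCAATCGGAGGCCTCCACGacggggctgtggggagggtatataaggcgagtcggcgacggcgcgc
Hsp90b1: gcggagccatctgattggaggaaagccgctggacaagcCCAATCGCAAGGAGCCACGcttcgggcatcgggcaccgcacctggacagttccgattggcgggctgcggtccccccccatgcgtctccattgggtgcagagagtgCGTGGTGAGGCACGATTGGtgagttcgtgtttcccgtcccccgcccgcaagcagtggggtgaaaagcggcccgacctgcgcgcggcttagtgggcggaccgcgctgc

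In Hspa1a and Hspa1b the capitals mark the 2-unit heat shock element GAANNTTC, which starts 104 bases before the transcription start in both. This motif, which reads the same on both strands, was present in 6.69% of the 32851 RefSeq mouse promoter windows of the same length. In Hspa5 and Hsp90b1 the capitals mark the ER stress element, CCAAT and CCACG with 9 bases of any kind between them, found on either strand in 0.113% of the windows. Hspa5 held 1 match, which starts 65 bases before the transcription start, and Hsp90b1 held 2, which start 212 and 107 bases before it. Among the 9 members in the promoter table (all but Hspa8), no other held GAANNTTC or the ER stress element. The other order of the heat shock units, TTCNNGAA, was not part of the search, and the Hsph1 windows hold it. The longer heat shock element, TTCNN followed directly by GAANNTTC and so overlapping the shorter one (0.466% of windows, both strands) and the ATF4-type motif TGATGNAA (3.45% of windows, both strands) matched in 0 of the 9. A match is a description of the letters and was not tied to binding in these oocytes.

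Library depth and composition differed within groups, so they are given before the results. The 13 deeper libraries held 19033272 to 55593251 counts, but 5954262 and 7125348 counts were found in replicates 1 and 2 of IVG-NT at day 6. The ribosomal RNA gene CT010467.1 took 12.5% to 37.9% of the counts in 9 libraries, called rRNA-rich here, and 0.187% to 0.714% in the other 6, called rRNA-poor. Every in vitro group held 2 rRNA-rich libraries (replicates 1 and 2) and 1 rRNA-poor library, whereas IVV held 1 rRNA-rich library (replicate 3) and 2 rRNA-poor ones. Each of the 12 oocyte markers had counts in every group, with summed levels of 11450.0 to 27190.0 normalized CPM (counts divided by library size and TMM factors). The 12 granulosa and cumulus markers summed to 151 to 229 CPM in IVV and to 48.9 to 351 CPM in the in vitro groups, and the 8 theca and stroma markers to 12.4 to 23.0 and to 0 to 28.4 CPM. The 7 macrophage and blood markers summed to 3.70 to 15.7 CPM in IVV and to 0 to 53.1 CPM in vitro. No marker of any list was at 0 in all 15 libraries, and the part of other cells in the values below was not tested.

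Per length, Hspa8 and the other chaperone genes stood far above the inducible HSP70 genes. Hspa8, which encodes the constitutive HSC70, had the highest mean level of the 10 genes at 94.3 CPM per kilobase of exon, above 97.2% of the genes tested. Dnajb1 (an HSP40 co-chaperone of HSP70) followed with 81.8, Hsp90b1 (the ER chaperone GRP94) with 55.3, Ddit3 (the pro-apoptotic factor CHOP) with 40.6 and Hsph1 (an HSP110 nucleotide exchange factor) with 37.9 CPM per kilobase. Atf4 averaged 27.6 and Hspa5, the ER chaperone BiP, 16.2 CPM per kilobase. The remaining 3 genes were close to the detection limit of these libraries. Hspa1b, Xbp1 and Hspa1a averaged 0.346, 0.263 and 0.148 CPM per kilobase, and had at most 85, 100 and 57 reads in any library. In the 12 libraries with any HSP70 read from Hspa1a or Hspa1b, Hspa8 exceeded their sum by 35.6-fold to 625-fold per length.

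**Figure D1:**
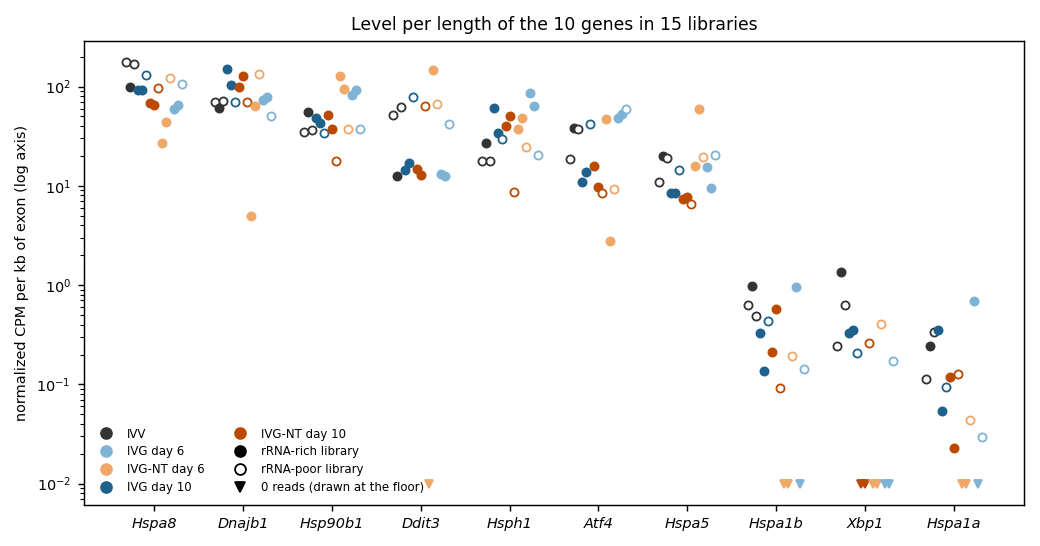
Normalized CPM per kilobase of exon (log axis) of the 10 genes in each of the 15 libraries, ordered by mean level, with colour for the group, filled points for rRNA-rich and open points for rRNA-poor libraries. In all, 7 genes average between 16.2 and 94.3 CPM per kilobase and 3 genes average below 1, and triangles stand for libraries with 0 reads.

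The inducible HSP70 genes Hspa1a and Hspa1b lie beside each other on chromosome 17 (GRCm38, minus strand, 34969190 to 34972156 and 34956436 to 34959238) as single exons. Their coding sequences, the longest reading frames of the GENCODE vM21 transcripts, were 99.5% identical, and the promoter windows above differed at 3 of 250 positions. Reads could therefore be split between them by the counting, and both are uncertain one by one. Hspa1a also overlaps the antisense gene Gm20481 over 564 bases, and the counting is not stated to use strand. Hspa1a had 16, 12 and 49 reads in IVV (replicates 2, 3 and 4), 57, 0 and 6 in IVG at day 6, 0, 0 and 8 in IVG-NT at day 6, 37, 7 and 16 in IVG at day 10 and 12, 2 and 16 in IVG-NT at day 10. On the normalized scale these reads spanned 0 to 2.05 CPM, with the highest value in replicate 1 of IVG at day 6. In the 6 comparisons between groups the libraries overlapped for Hspa1a, although all IVV libraries lay above those of IVG-NT at day 6.

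Hspa1b stood at 1.78, 2.73 and 1.38 CPM in IVV, 2.70, 0 and 0.397 in IVG at day 6, 0, 0 and 0.538 in IVG-NT at day 6, 0.927, 0.386 and 1.23 in IVG at day 10 and 0.589, 1.62 and 0.257 in IVG-NT at day 10. All 3 IVV libraries lay above all 3 libraries of IVG at day 10. The fitted difference was -1.21 on the log2 scale (SE 1.83, adjusted p = 1 by the quasi-likelihood test of edgeR). For the summed reads of both genes the same difference was -0.98 (SE 1.80, adjusted p = 1 in edgeR). The libraries without any read of either gene were replicates 1 and 2 of IVG-NT at day 6, the shallow pair, and replicate 2 of IVG at day 6.

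Hspa8, the constitutive HSP70 that folds nascent chains and uncoats clathrin vesicles (chromosome 9, plus strand, 40800984 to 40810087), was read at 763, 429.5 and 725 CPM in IVV. It stood at 254, 278 and 461 CPM in IVG and 115, 188 and 521 CPM in IVG-NT at day 6. At day 10 it stood at 398, 398 and 567 CPM in IVG and at 294, 281 and 412 CPM in IVG-NT. The mean was highest in IVV at 639 ± 183 (SD, n = 3) and lowest in IVG-NT at day 6 at 274 ± 216 (SD, n = 3). All 3 IVG-NT libraries of day 10 lay below all 3 IVV libraries. That difference was -0.96 on the log2 scale (SE 0.61, adjusted p = 1 in edgeR), and -0.55 among rRNA-rich libraries alone, of which IVV has 1. Neighbouring groups in the order of means overlapped throughout. The merged exons of all annotated Hspa8 transcripts cover 3 small nucleolar RNA genes (Snord14c, Snord14d and Snord14e). That merged length, 4301 bases, is the one behind its level per kilobase.

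Hsph1, the HSP110 partner that recharges HSP70 with ATP (chromosome 5, minus strand, 149614287 to 149636376), had its lowest mean in IVV. It stood at 130.5, 195 and 130.5 CPM in IVV. It reached 628, 460.0 and 149 CPM in IVG and 274, 353 and 177 CPM in IVG-NT at day 6, and 446, 248 and 213 CPM in IVG and 293, 365 and 63.5 CPM in IVG-NT at day 10. All IVG libraries of day 10 lay above all IVV libraries, a difference of 0.99 on the log2 scale (SE 0.70, adjusted p = 1 in edgeR). With the kind of library in the fit this was 0.57, and the IVV mean was 152 ± 37.1 CPM (SD, n = 3). Neighbouring groups overlapped for Hsph1 too.

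Dnajb1, which delivers clients to HSP70 and stimulates its ATPase (chromosome 8, plus strand, 83608193 to 83612653), was the steadiest member in IVV, at 222, 196 and 231 CPM. In culture 1 library stood apart, since replicate 1 of IVG-NT at day 6 had 88 reads, or 15.9 CPM, beside 202 and 425 CPM in replicates 2 and 3. IVG at day 6 had 234, 253 and 163 CPM. At day 10 Dnajb1 stood at 482, 333 and 224 CPM in IVG and at 319, 405 and 226 CPM in IVG-NT. No pair of groups was separate, and the group means ran from 214 to 346 CPM.

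Hspa5 encodes BiP, the ER HSP70 that holds the unfolded protein sensors inactive (chromosome 2, plus strand, 34771970 to 34777547). In the edgeR fit of all 15 libraries it gave the only call among the members, beside 12.7% of all genes in that comparison. It stood at 45.8, 84.9 and 80.2 CPM in IVV. At day 6 it stood at 65.1, 40.4 and 85.5 CPM in IVG and at 66.9, 250.3 and 82.4 CPM in IVG-NT. At day 10 it stood at 35.8, 35.6 and 61.5 CPM in IVG and at 31.1, 32.7 and 28.0 CPM in IVG-NT. The IVG-NT libraries of day 10 were thus tight, at 30.6 ± 2.39 CPM (SD, n = 3), and lay below every other group's libraries. Their mean was the lowest of the 5, and it was separate from the next lowest, IVG at day 10 with 44.3 ± 14.9 CPM (SD, n = 3).

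Within IVG-NT, Hspa5 fell from day 6 to day 10 by 2.12 on the log2 scale (SE 0.71, adjusted p = 0.357 in edgeR). This was past the threshold of a log2 fold change beyond 1 with an unadjusted P under 0.05, as for 12.7% of all genes. DESeq2 gave -2.61 with an adjusted p of 0.00906, and 715 genes passed an adjusted p of 0.05 in that test. The high value of 250.3 CPM came from replicate 2 of day 6, a library of 7125348 counts in which Hspa5 had 1438 reads. Leaving that library out gave the smallest difference among the 15 fits without 1 library, -1.34, and the call remained. Without the 2 shallow libraries the difference was -1.53 and was still called, with an adjusted p of 1 in edgeR and the 1 remaining day 6 library assumed to vary like the others. Fitted on those 2 groups only, it was -2.16 and was not called (adjusted p = 0.9999 in edgeR).

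The other Hspa5 differences were not called in the edgeR fit of all 15 libraries. Against IVV, the IVG-NT libraries of day 10 gave a difference of -1.20 on the log2 scale (SE 0.69, adjusted p = 1 in edgeR). Against IVG at day 10, the difference was -0.53 (SE 0.69, adjusted p = 1 in edgeR), and among rRNA-rich libraries it was -0.15. In IVG the change from day 6 to day 10 was not past the threshold, and the test of whether the NT-4 difference changed between the days did not call Hspa5 either.

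Hsp90b1, the ER member of the HSP90 family that folds secreted and membrane proteins (chromosome 10, minus strand, 86690209 to 86705509), stood at 139.5, 223 and 148 CPM in IVV and overlapped in every pair of groups. Day 6 libraries included its highest values, 335, 369.9 and 149.6 CPM in IVG and 517, 377 and 150.1 CPM in IVG-NT. At day 10 it stood at 195, 172 and 137 CPM in IVG and at 207, 150.3 and 71.4 CPM in IVG-NT. In each in vitro group the lowest value belonged to replicate 3, the rRNA-poor library. Hsp90b1 overlaps the genes 1810014B01Rik, Gm15344 and Gm25745, the first of them on the other strand.

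Atf4, the factor translated when eIF2 alpha is phosphorylated (chromosome 15, plus strand, 80255184 to 80257541), had separate libraries in 3 of the 6 comparisons, as Hspa5 did. Of all genes tested, 11.6%, 8.45% and 7.42% were separate in the 3 Atf4 comparisons. In those of Hspa5 the shares were 11.6%, 3.59% and 11.0%. It stood at 112, 126 and 139 CPM in IVG at day 6, above every library of the other 4 groups, though replicate 1 of IVG-NT at day 6, with 112 CPM, lay just under the lowest of them. IVV had 44.2, 89.8 and 88.0 CPM. IVG-NT at day 6 had 112, 6.61 and 21.9 CPM, and at day 10 the values were 25.8, 32.4 and 98.3 CPM in IVG and 37.2, 22.8 and 20.0 CPM in IVG-NT. The 2 groups with NT-4 had the lowest means, 46.8 ± 56.9 CPM at day 6 and 26.7 ± 9.24 CPM at day 10 (SD, n = 3 each).

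None of those 3 Atf4 differences was called. IVG-NT at day 10 lay below IVV, with a difference of -1.47 on the log2 scale (SE 0.89, adjusted p = 1 in edgeR). At day 6 IVG-NT lay below IVG, at -1.43 (SE 0.89, adjusted p = 0.526 in edgeR). IVG at day 10 lay below IVG at day 6, at -1.27 (SE 0.89, adjusted p = 1 in edgeR). The day 6 difference depended on replicate 1 of IVG-NT: without that library it was -3.08, past the unadjusted threshold, with an adjusted p of 0.371 in edgeR. Without both shallow libraries all 3 differences passed the unadjusted threshold, at -1.51, -2.44 and -1.25, with adjusted p of 0.628, 0.928 and 0.875 in edgeR and beside 4.24%, 2.70% and 3.38% of all genes. The -2.44 rests on the 1 remaining IVG-NT library of day 6, which was assumed to vary like the other groups.

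Ddit3 encodes CHOP, which acts downstream of ATF4 in prolonged ER stress (chromosome 10, plus strand, 127290774 to 127296288), and its values fell into a low and a high set within nearly every group. IVV had 89.5, 21.5 and 107 CPM. At day 6 IVG had 22.5, 21.4 and 72.3 CPM and IVG-NT had 0, 250.1 and 114 CPM. At day 10 IVG had 24.9, 28.9 and 135 CPM and IVG-NT had 25.1, 22.0 and 109 CPM. Every pair of groups overlapped. The value of 0 and the highest value were both in the shallow libraries of IVG-NT at day 6, and in 8 of the 9 rRNA-rich libraries Ddit3 lay below all 6 rRNA-poor ones. The second Ddit3 identifier (ENSMUSG00000116429), 105 bases inside the first, had 1 read in 13 libraries and 0 in 2, and was too low to be tested. Ddit3 overlaps Mars by 68 bases on the other strand.

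Xbp1, the factor activated by IRE1 splicing (chromosome 11, plus strand, 5520659 to 5525893), was detected in all IVV libraries at 0.796, 4.37 and 2.03 CPM. In IVG at day 10 it stood at 1.07, 1.16 and 0.669 CPM. In each of the other groups replicates 1 and 2 had no read, and replicate 3 stood at 0.559 CPM in IVG at day 6, 1.32 in IVG-NT at day 6 and 0.842 in IVG-NT at day 10. Gene counts do not show whether Xbp1 was spliced. All IVG libraries of day 10 lay above those of day 6, with a fitted difference of 2.30 on the log2 scale (SE 2.32, adjusted p = 1 in edgeR). In the fit with a block for the replicate number the difference was 6.25 and passed the unadjusted threshold, as 1.71% of all genes did, with an adjusted p of 1 in edgeR. Whether equal numbers mark paired libraries is not stated, and in these groups the numbers also follow the kind of library. Without replicate 3 of IVG at day 6, all day 6 libraries were at 0 reads and the threshold was passed as well. These fitted sizes rest on libraries at 0 and depend on the prior count.

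**Figure D2:**
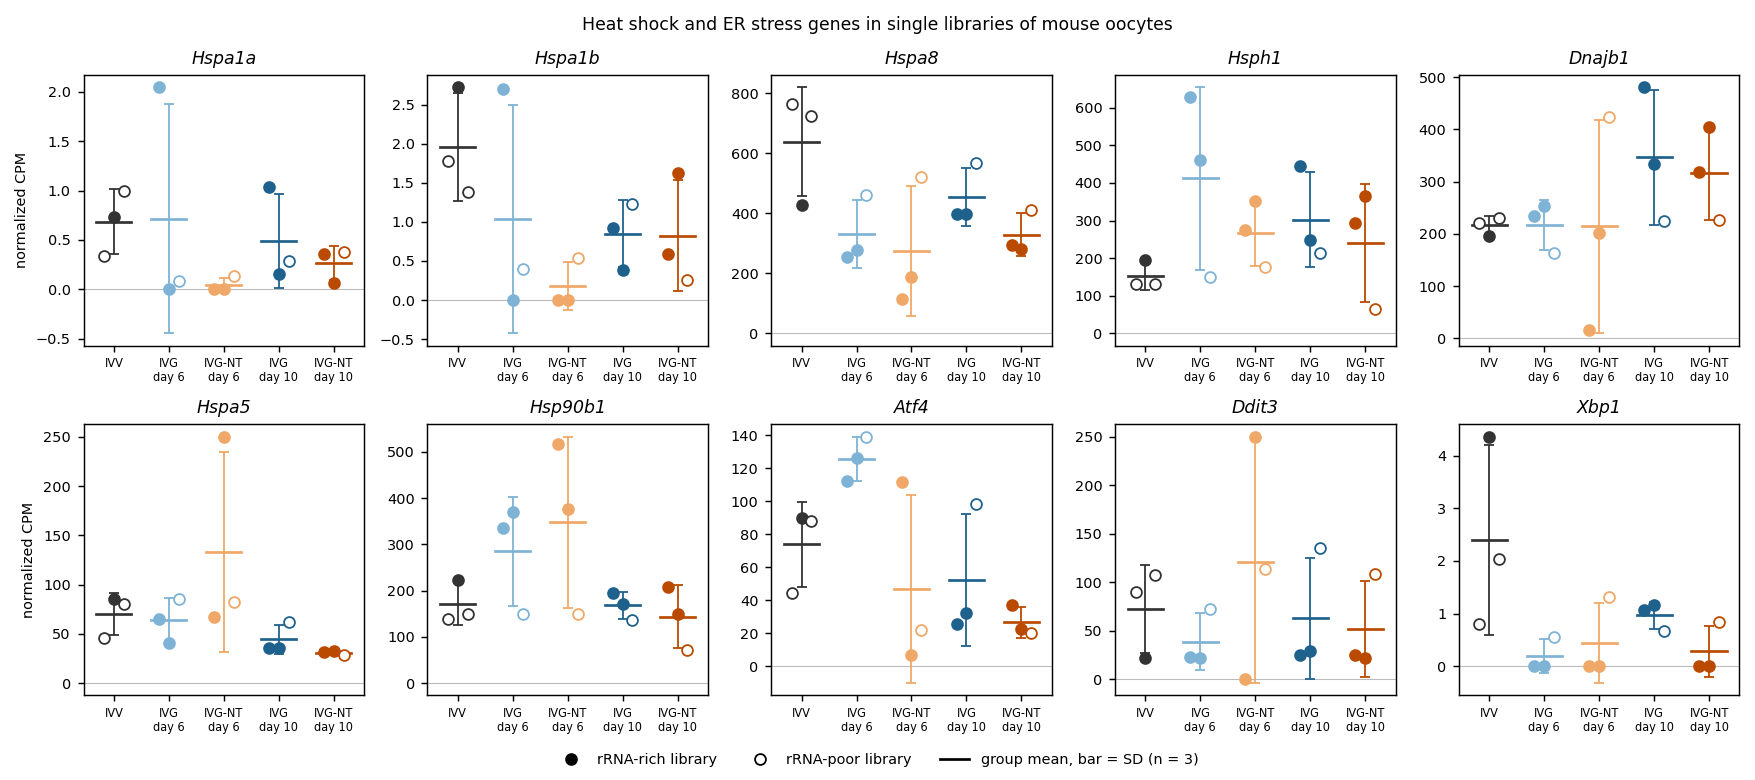
Normalized CPM of each gene in the 15 libraries by group, with the group mean (line) and SD (bar, n = 3), filled points for rRNA-rich and open points for rRNA-poor libraries, and a separate vertical scale for each gene. The 3 Hspa5 values of IVG-NT at day 10 sit between 28.0 and 32.7 CPM, below all other Hspa5 values, while most other groups overlap.

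Counted by comparison, the members seldom passed the threshold, and these counts are read against the share of all 21009 genes tested. Of the 11 identifiers 10 were tested. Between IVG at day 10 and IVV, 0 of 10 members were called, beside 2.76% of all genes, and 2 of 10 had separate libraries, beside 11.9% of all genes. Between IVG-NT at day 10 and IVV the members gave 0 calls beside 3.29%, and 3 separate beside 11.6%. Against IVV, the mean of the 4 in vitro groups gave 0 calls among the members beside 8.03% of genes. Here the members ranged from -2.58 (Xbp1) to 0.98 (Hsph1) on the log2 scale, with a median of -0.37 beside -0.30 for all genes tested.

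For NT-4 itself, 0 of 10 members were called at day 10, beside 1.24% of all genes, and 1 of 10 had separate libraries (Hspa5), beside 3.59%. All 10 members had a fitted difference below 0 at day 10, from -1.76 to -0.04, with a median of -0.40 beside 0.01 for all genes tested. The signs held with DESeq2's size factors, but up to 4 of the 10 turned when 1 library was left out (4 without replicate 3 of IVG-NT at day 10) and 2 turned among rRNA-rich libraries alone. With the replicate block, whose pairing is not stated by the labels, 1 of 10 members, Xbp1, was called, beside 0.605% of all genes in the same fit. Xbp1 was also called when replicate 3 of IVG-NT was left out, so that its NT-4 libraries were all at 0 reads, beside 0.854% of all genes. At day 6, 0 of 10 were called beside 11.6% of genes, and 1 (Atf4) had separate libraries beside 8.45%. The test of a different NT-4 effect on the 2 days called 0 of 10 members, beside 6.37% of genes.

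From day 6 to day 10, 0 of 10 members were called in IVG, beside 2.9% of genes, and 2 (Atf4 and Xbp1) had separate libraries, beside 7.42%. In IVG-NT 1 member (Hspa5) was called beside 12.7% of genes, and the same gene was the 1 with separate libraries, beside 11.0%. The test of any difference among the 5 groups called 0 of 10 members, beside 10.2% of genes. At an adjusted p under 0.05, 0% of the genes tested were called in any of these 9 tests with edgeR. DESeq2 called 51 to 715 genes by that rule, and among the members Hspa5 in IVG-NT between days. For the members, 38 of the 40 pairs of neighbouring groups in the order of means overlapped. The share over all genes tested was not computed for such pairs, so this count is a description only. The 2 separate pairs were IVG above IVG-NT at day 10 for Hspa5 and IVG at day 6 above IVV for Atf4.

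**Figure D3:**
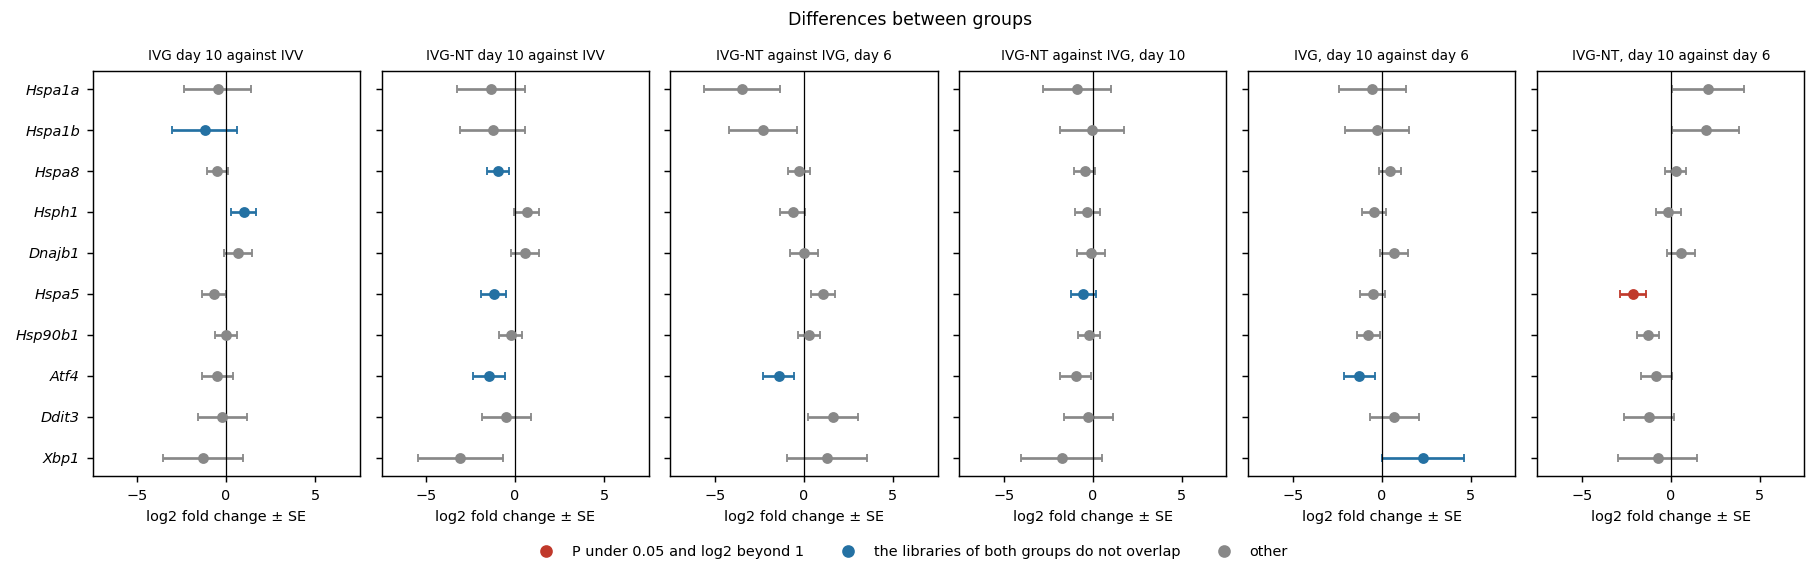
Log2 fold change with its SE for the 10 genes in the 6 comparisons between groups, from 1 edgeR fit of 15 libraries. Hspa5 in IVG-NT from day 6 to day 10, at -2.12, is the single red point past the threshold of a log2 fold change beyond 1 with an unadjusted P under 0.05, and blue points mark the 9 other cases with separate libraries.

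Hspa8, Hsph1 and Hsp90b1 differed between the kinds of library. With group and kind in the same fit, Hspa8 was lower in rRNA-rich libraries, at -0.90 on the log2 scale (SE 0.22, adjusted p = 0.00987 in edgeR), with 115 to 429.5 CPM in 9 rRNA-rich and 412 to 763 CPM in 6 rRNA-poor libraries. Hsph1 was higher by 1.23 (SE 0.30, adjusted p = 0.0111 in edgeR), and Hsp90b1 was higher by 1.02 (SE 0.25, adjusted p = 0.00919 in edgeR). For Hsp90b1 the kinds did not overlap, at 150.3 to 517 against 71.4 to 150.1 CPM, although the nearest 2 libraries differed by little. Of the 10 members, 3 passed an adjusted p of 0.05 here, beside 23.7% of all genes tested.

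Ddit3 (-1.77, adjusted p = 0.141 in edgeR) and Xbp1 (-3.78, adjusted p = 0.129 in edgeR) were lower in rRNA-rich libraries without passing. Xbp1 had no read in 6 of the 9 rRNA-rich and in 0 of the 6 rRNA-poor libraries. For Hspa1b, Dnajb1, Hspa5 and Atf4 the kinds differed by -0.12 to 0.00 on the log2 scale. The Hsph1 difference missed the threshold without replicate 3 of IVG-NT at day 10 (0.96, adjusted p = 0.0569 in edgeR) or without replicate 3 of IVG at day 6 (1.06, adjusted p = 0.0594 in edgeR). The Hsp90b1 difference missed it without replicate 3 of IVG-NT at day 10 (0.94, adjusted p = 0.0509 in edgeR). The kind of library was defined from these data, and what it stands for was not tested.

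**Figure D4:**
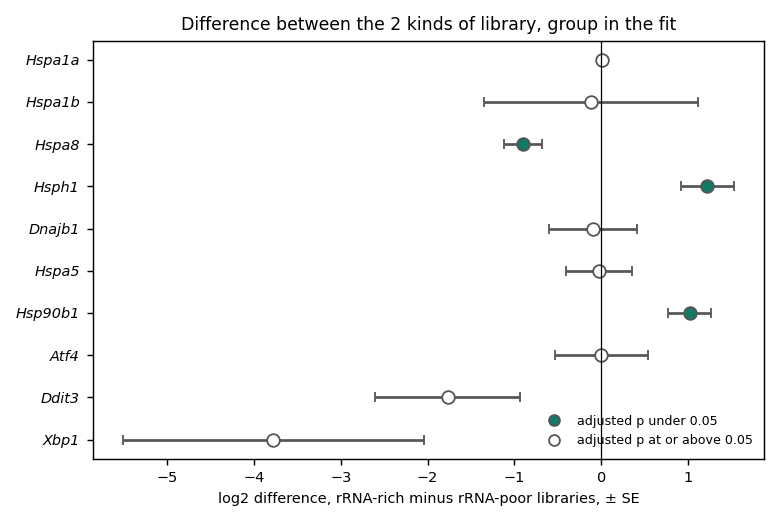
Log2 difference of each gene between 9 rRNA-rich and 6 rRNA-poor libraries (rich minus poor) with its SE, from a fit that also holds the group. Hspa8 lies at -0.90 and Hsph1 and Hsp90b1 at 1.23 and 1.02 (green, adjusted p under 0.05 in edgeR), and no SE is drawn for Hspa1a, whose difference is near 0 with few reads.

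Across the 15 libraries the members did not move as 1 group. The strongest positive correlation of log2 CPM was between the paralogs Hspa1a and Hspa1b, with Pearson's r of 0.81, which may share reads. Hspa8 correlated with Xbp1 at 0.78 and with Hsp90b1 at -0.76, and Hsph1 with Hsp90b1 at 0.74. With each kind of library centred these were 0.67, -0.52 and 0.42. In the 13 libraries without the shallow pair they were 0.76, -0.54 and 0.84, and Hspa1a and Hspa1b stood at 0.70. Dnajb1 and Ddit3 correlated at 0.77, but at -0.29 in the 13 libraries without the shallow pair. The ER chaperones Hspa5 and Hsp90b1 correlated at 0.41, and at 0.16 without that pair. Atf4 and Ddit3, factors of the same branch, correlated at -0.38, and at -0.05 without that pair. These values are descriptions over libraries that share depth and composition.

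**Figure D5:**
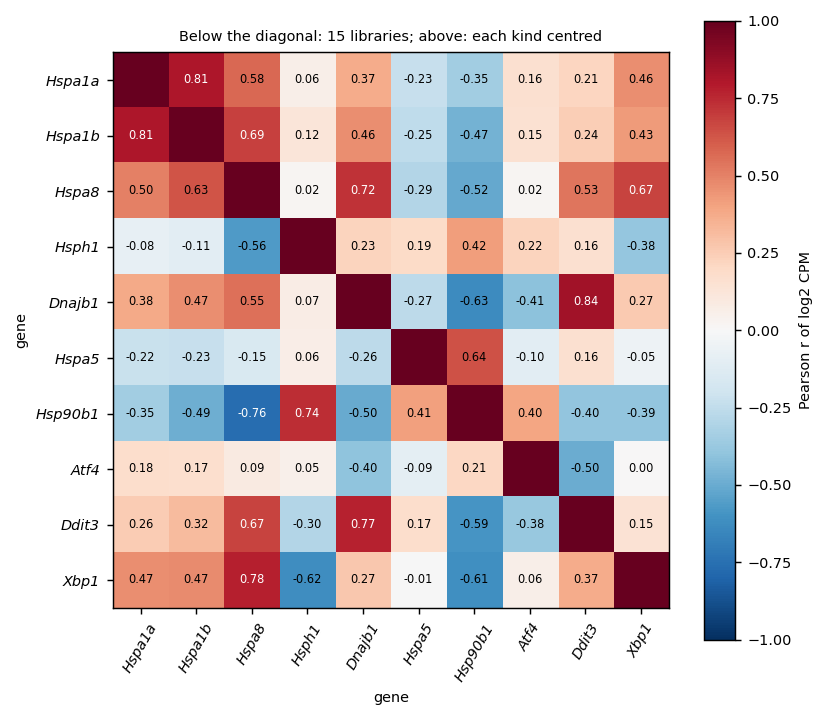
Pearson correlation of log2 CPM between the 10 genes, over 15 libraries below the diagonal and with each kind of library centred above it. Hspa1a and Hspa1b stand at 0.81, Hsph1 and Hsp90b1 at 0.74 below the diagonal and 0.42 above it, and Atf4 and Ddit3 at -0.38 below it and -0.50 above it.

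The genes most like Hspa8 over the 15 libraries were Med29, a Mediator subunit, with r of 0.94, and the long noncoding RNAs AC132452.5 (0.94) and AC121603.1 (0.93), beside a median of 0.37 for all other genes tested. All 3 were higher in the rRNA-poor libraries, as Hspa8 was: Med29 stood at 98.3 to 313 CPM in 6 rRNA-poor and at 0 to 23.2 CPM in 9 rRNA-rich libraries. The genes most like Hspa5 were Gm13373 (0.90), Gm12312 (0.89) and Gm13040 (0.88), beside a median of -0.19. These 3 share with Hspa5 a high value in replicate 2 of IVG-NT at day 6.

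The wider pathways were described from 3 lists. Of 39 cytosolic chaperone genes 35 were tested, and of these 0 were called in IVG at day 10 and 1 (Cryab, lower, with no read in IVG-NT and 0.963, 0 and 0.935 CPM in IVV) in IVG-NT at day 10, each against IVV (2.76% and 3.29% of all genes), and 0 between both in vitro groups of day 10 (1.24%). At day 6, 3 of 35 were called between IVG-NT and IVG, beside 11.6% of all genes: the small heat shock protein gene Cryab was higher, and Bag3, an HSP70 co-chaperone, and Hspa2, a testis-rich HSP70, were lower. Cryab was at 21.9 CPM in 1 IVG-NT library of day 6, replicate 1, and at or below 0.0652 CPM in the other 2. The list's median was -0.23 on the log2 scale, beside -0.27 for all genes tested. Bag3 and Hspa2 were at 9.68 and 25.4 CPM in replicate 2 of IVG at day 6 and at most 0.864 and 1.98 CPM in the other 2 libraries of that group. From day 6 to day 10, 0 of 35 were called in IVG, beside 2.9% of all genes, and 2 in IVG-NT (Cryab lower and Dnajb4 higher), beside 12.7%.

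All 28 genes of the unfolded protein and integrated stress response list were tested. At day 10 the 1 gene called in IVG-NT, both against IVV and against IVG, was Trib3, a pseudokinase induced by ATF4 and CHOP, lower with NT-4, beside 3.29% and 1.24% of all genes. It was at 0 in all 3 IVG-NT libraries of day 10 and at 0 to 0.722 CPM in IVV and IVG of that day. At day 6, 6 of 28 were called between IVG-NT and IVG, 3 in each direction, beside 11.6% of all genes. The stress-inducible Sesn2 was higher by 4.69 on the log2 scale (SE 1.41, adjusted p = 0.381 in edgeR), and Mbtps1, the protease that cleaves ATF6, by 4.12 (SE 1.39, adjusted p = 0.381 in edgeR). Atf6b was lower, at -4.25 (SE 1.58, adjusted p = 0.381 in edgeR). Sesn2 stood at 194, 141 and 1.34 CPM in the IVG-NT libraries of day 6, so its high values were those of the shallow pair. Mbtps1 stood at 3.43, 845 and 10.1 CPM there, with 1 library high. Atf6b was at 0, 0 and 2.01 CPM there, against 13.8, 23.6 and 4.81 CPM in IVG.

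From day 6 to day 10 in IVG-NT, 7 of 28 were called, beside 12.7% of all genes, and the 3 with the smallest p were again Sesn2 and Mbtps1, lower, and Atf6b, higher. In IVG 1 of 28 was called, beside 2.9% of all genes: Asns, the ATF4 target asparagine synthetase, which had 0.786, 3.99 and 2.80 CPM at day 10 and at most 0.338 CPM at day 6. Against IVV, the mean of the in vitro groups gave 3 of 28, beside 8.03% of all genes: Creb3 and Sesn2 were higher and Asns lower. The same comparison called 2 of the 35 cytosolic chaperones, Hspa2 and Cryab, both lower, and 1 of the 37 ER folding genes below, Syvn1, higher. The medians of the 28 genes ran from -0.30 to 0.15 in the 6 comparisons between groups, beside -0.27 to 0.40 for all genes tested. In IVG-NT between days the median was -0.30 beside 0.40, and for NT-4 at day 6 it was 0.06 beside -0.27.

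Of the 37 genes for ER folding and degradation, all tested, 2 were called between IVG at day 10 and IVV, beside 2.76% of all genes, both higher: Sel1l and Sec61a1, parts of the ER degradation complex and of the translocon. Sel1l stood at 72.6, 59.5 and 30.2 CPM in IVG against 13.9, 14.8 and 12.9 CPM in IVV, a difference of 1.96 (SE 0.85, adjusted p = 1 in edgeR). Sec61a1 stood at 681, 675 and 109.7 CPM against 81.7, 162 and 73.5 CPM, with the 2 highest values in rRNA-rich libraries. Between IVG-NT at day 10 and IVV 0 were called, and 0 between IVG-NT and IVG at day 10. At day 6, Ero1lb, an ER oxidase, and Ganab, a glucosidase subunit, were lower in IVG-NT than in IVG, 2 of 37 beside 11.6% of all genes. Ero1lb stood at 29.8, 8.70 and 23.8 against 126, 108 and 77.9 CPM, a difference of -2.32 (SE 0.74, adjusted p = 0.381 in edgeR). In IVG Ero1lb, 1 of 37 called beside 2.9% of all genes, also fell from day 6 to day 10, by 1.58 on the log2 scale (SE 0.72, adjusted p = 1 in edgeR), to 34.0, 21.7 and 48.2 CPM. In IVG-NT Ganab and Herpud1 were called higher at day 10 than at day 6, 2 of 37 beside 12.7% of all genes. The member Hspa5, called lower in that comparison, is not among these 37 genes.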

How the data were processed

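SMART-Seq2 libraries of 6 oocytes each were sequenced with paired-end reads. Per the study's methods, the authors removed low-quality reads, aligned to mm10 with HISAT2 and assembled with StringTie, and they deposited raw counts per Ensembl gene and library; how the counts were taken is not given in the sources used here. Group and replicate came from the sample titles. A merged series table was not used.

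Symbols came from GENCODE vM21 (99.53% of 55401 identifiers matched). One edgeR (4.0.16, R 4.3.3) fit covered all 15 libraries: TMM factors, filterByExpr (minimum count 10, 21009 genes kept), quasi-likelihood test per group contrast, Benjamini-Hochberg adjustment over all genes tested. A gene was called at a log2 fold change beyond 1 with unadjusted P under 0.05, and adjusted p is printed beside it. The study's methods give these limits for fold change and P; taking P as unadjusted was a choice made here. SE was the fold change divided by the root of the F value. Log2 CPM used a prior count of 2. Libraries with over 5% of counts in CT010467.1 were called rRNA-rich. The fit was tested on simulated counts. Members are described in full; other genes of a list are named where called, at most the 3 with the smallest p. The members and the lists were chosen with earlier results of these data known. Alternatives were DESeq2 (1.42.0) and its size factors, no filter, the rRNA gene left out, a replicate block, the library kind as a covariate, rRNA-rich libraries only, only the compared groups, the shallow libraries left out and each library left out. Same-numbered libraries deviated together between IVG-NT and IVG at day 10 (correlations of 0.37 to 0.73) and between IVG at day 10 and day 6 (0.15 to 0.54), so the block is given beside those results. Between IVV and the day 10 groups the correlations were -0.52 to -0.28. The study's methods say that all culture groups were run in parallel, but they do not tie library numbers to experiments. In every in vitro group replicate 3 is the rRNA-poor library, so a shared number cannot be told apart from a shared kind of library. Promoters were read from a RefSeq table and figures drawn with matplotlib.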

Additional observations from a re-analysis of the deposited data

How the results depend on the processing

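No member difference that was called or had separate libraries changed direction. The number of members called was small and moved with the settings, and the directions of single list genes were not followed. Hspa5 in IVG-NT from day 6 to day 10 was called in every alternative except the fit of those 2 groups alone, which gave 0 members called. With DESeq2's size factors in edgeR 1 (Hspa8) was called for the in vitro mean against IVV, beside 8% of all genes. The same fit called 1 (Hspa5) for NT-4 at day 6, beside 12.1%. It called 2 (Hspa5 and Hsp90b1) for IVG-NT between days, beside 12.9%, and 2 for any difference, beside 11.5%. That scaling moved the median log2 difference of all genes from -0.20 to -0.39 between IVG at day 10 and IVV and from 0.40 to 0.04 in IVG-NT between days. The DESeq2 test called 1 (Hspa5) for IVG-NT at day 10 against IVV and 1 (Hspa5) for NT-4 at day 6. It called 2 (Hspa5 and Hsp90b1) for IVG-NT between days. It called 1 (Hspa5) for the changed NT-4 effect and 2 (Hspa5 and Hsp90b1) for any difference. With library kind as a term, 1 was called for IVG-NT at day 10 against IVV, beside 4.31% of all genes, and 1 for the in vitro mean, beside 8.49%. That fit called 2 for IVG-NT between days, beside 16.9%, and 3 for any difference, beside 11.8%. In rRNA-rich libraries only, 2 were called for IVG-NT between days, beside 19.5%. IVV has 1 rRNA-rich library, so calls against it in those libraries rest on 1 sample and are not listed here. The fit of the compared groups alone called 2 (Hspa5 and Atf4) for IVG-NT at day 10 against IVV, beside 4.1% of all genes. Leaving out the shallow libraries, chosen after seeing the data, called the same 2 there, beside 4.24%. It also called 1 (Atf4) for IVG between days, beside 3.38%. Calls in that setting that rest on the 1 remaining IVG-NT library of day 6 are not listed here. With the replicate block 1 (Xbp1) was called for NT-4 at day 10, 1 for IVG between days and 1 for the changed NT-4 effect, beside 0.605%, 1.71% and 3.35% of all genes. The block in the 12 in vitro libraries, added after seeing the data, gave the same 1, 1 and 1, beside 0.747%, 2.51% and 4%. There 2 were called for IVG-NT between days, beside 8.46%. The block changed no other call.

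Leaving out 1 library at a time gave 0 to 0 calls for IVG at day 10 against IVV, 0 to 2 for IVG-NT at day 10 against IVV, 0 to 3 for the in vitro mean, 0 to 1 for NT-4 at day 10, 0 to 2 at day 6, 0 to 1 for IVG between days, 1 to 3 for IVG-NT between days, 0 to 1 for the changed NT-4 effect and 0 to 2 for any difference. The 3 calls for IVG-NT between days came without replicate 3 of IVG-NT at day 6, when 30.8% of all genes were called and Hspa5 also passed an adjusted p of 0.05 in edgeR. The share of all genes called moved too: over all alternatives it ran from 0.843% to 5.28% for IVG at day 10 against IVV, 0.999% to 4.77% for IVG-NT at day 10 against IVV, 4.65% to 19.6% for the in vitro mean, 0.109% to 2.03% for NT-4 at day 10, 2.70% to 29.1% at day 6, 1.33% to 4.86% for IVG between days, 2.40% to 30.8% for IVG-NT between days, 1.95% to 21.1% for the changed NT-4 effect and 3.46% to 22.4% for any difference. With DESeq2 it was 2.69%, 12.6%, 13.0%, 5.84% and 9.17% in the 5 tests named above for it. The cause of these changes was not tested. With 3 libraries a group, the low genes Hspa1a, Hspa1b and Xbp1, at 0 to 100 reads a library, were measured with little precision, and calls of Xbp1 and Hspa1b came and went with the settings.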
